A study of Mus musculus with 2 samples.

Results

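The genes described here encode the subunits of heterotrimeric G proteins, the RGS proteins that switch them off, and the G protein-coupled receptor kinases (GRKs). They were chosen by gene name: every non-control row of both scanner tables whose name begins with Rgs, Gna, Gnb, Gng, Gngt or Grk and a number or letter, or is Adrbk1 or Adrbk2. The selection itself reads names and no measured value, although this set of genes was picked for description with earlier results of these data known, and it took 100 probes for 58 of the 29273 gene names on the array. Of the 58 genes, 33 had 1 probe and 25 had several, and 55 genes (90 probes) had a signal that could be compared. Gng4, Gngt1 and Grk1 had no probe that cleared the background on both arrays, and all their signals lay between 63.3 and 69.4.

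RNA came from the aorta of apoE-/- mice. Without apolipoprotein E these animals form atherosclerotic plaques, and the study set a stretch of aorta that is prone to the disease against one that resists it. The arch segment (prone) ran from the aortic root through the arch into 2 mm of thoracic aorta, and the thoracic segment (resistant) was the following 6 mm. Both came from the same 6 mice, 3 males and 3 females aged 16 weeks, all apoE-/-, with no treatment given in the labels, and the vessels had been flushed with Triton X-100 to strip the endothelium. RNA of the 6 mice was pooled per segment, and the same pair of pools was hybridised on 2 two-colour arrays, with thoracic RNA in Cy5 and arch RNA in Cy3 on array 1 and the dyes exchanged on array 2. Both arrays therefore repeat 1 measurement: each ± is the SD between the 2 arrays, it holds no spread between mice, and no p-value is given. No group of apoE+/+ mice was analysed here.

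A heterotrimeric G protein passes the signal of an activated receptor into the cell. Its alpha subunit binds GTP and parts from the beta and gamma pair, and both parts act on effectors: Gs alpha raises cyclic AMP, Gi alpha lowers it, Gq and G11 alpha activate phospholipase C and release calcium, and G12 and G13 alpha act on the actin cytoskeleton. RGS proteins speed the hydrolysis of GTP by the alpha subunit and so end the signal, and GRKs phosphorylate active receptors so that arrestins bind them. In arterial smooth muscle these switches set the contraction evoked by angiotensin, endothelin, catecholamines and vasopressin.

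Values are log2 ratios of the arch over the thoracic signal, so positive values mean more signal in the arch pool. Differences were called by size. The 2-fold rule asked for a mean difference of 2-fold or more with both arrays past 1.5-fold the same way, and the 1.5-fold rule for a mean of 1.5-fold or more with both arrays on the same side of 0. Of the 55 members, 0 were higher in arch and 1 was higher in thoracic by the 2-fold rule, where 0.473% and 0.145% of all 22811 genes compared passed. By the 1.5-fold rule 1 member was higher in arch and 2 were higher in thoracic, where 1.4% and 0.456% of all genes passed. The members that passed were Rgs1, Rgs2 and Rgs5, all in the R4 family of RGS proteins. No G alpha, G beta or G gamma gene, no GRK and no RGS gene of another family passed either rule. The median over the members was 0.03, beside -0.01 over all genes. By the 1.5-fold rule 52 of 55 members passed in neither direction, beside 22387 of all 22811 genes.

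**Figure D1:**
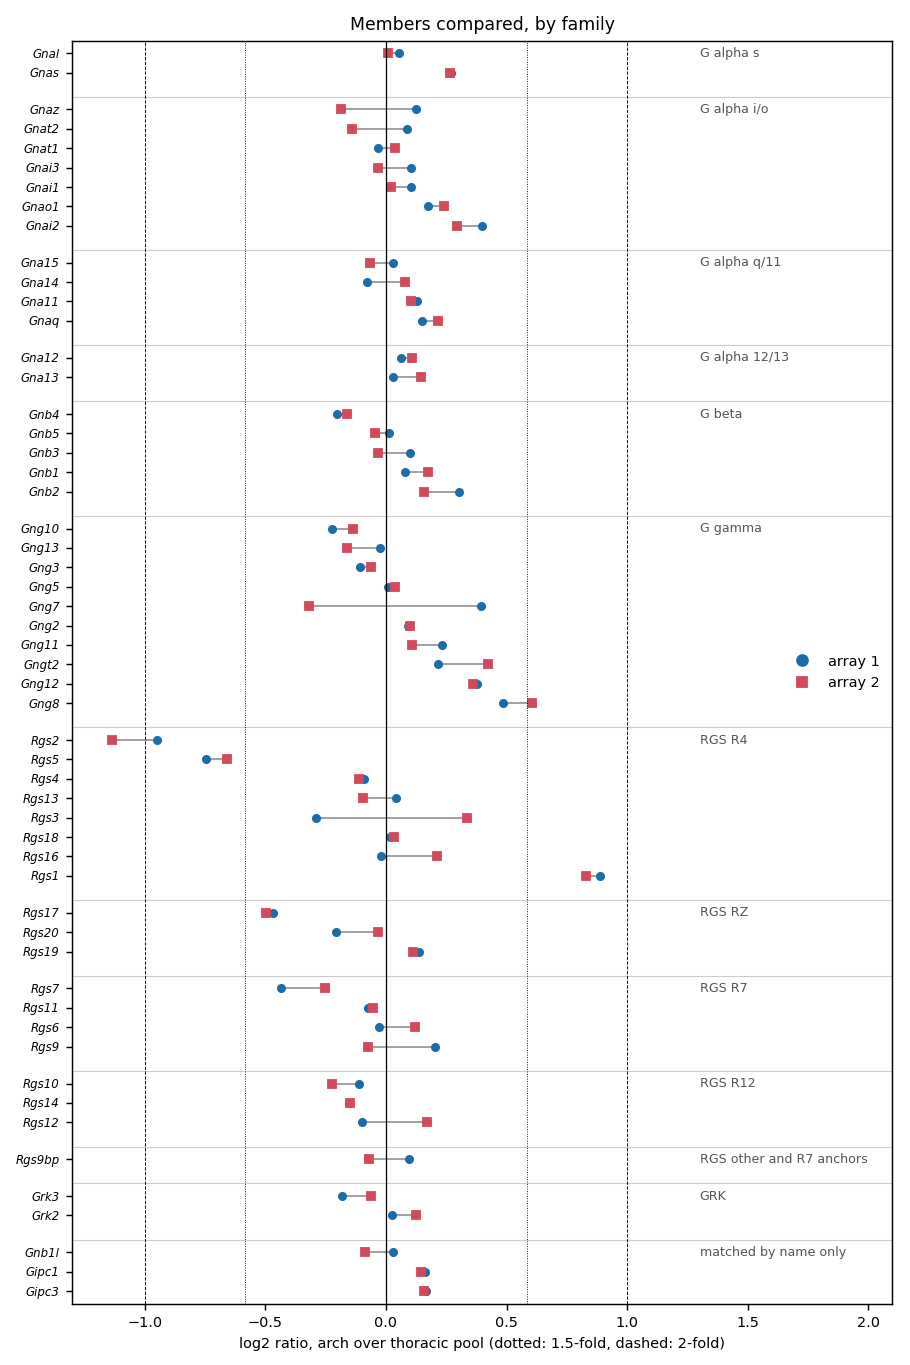
Log2 ratio of arch over thoracic signal for 54 of the 55 members compared, grouped by family and ordered by their mean, with 1 circle for array 1 and 1 square for array 2. Rgs1 lies to the right of the 1.5-fold line, Rgs2 and Rgs5 lie to the left of it on both arrays, and Gng8 crosses it on array 2 only.

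Across all 18 RGS genes compared the median was -0.05, with 8 above 0 and 10 below. Over all 22811 genes, 10797 lay above 0 and 12014 below. The R4 proteins, small proteins that consist of little more than the RGS domain, gave both ends of the whole set. Rgs2, an R4 protein that acts mainly on Gq and whose loss raises blood pressure in mice, had the lowest ratio. Its signal was 5923 in arch and 11425 in thoracic on array 1, and 5559 in arch and 12223 in thoracic on array 2. Both thoracic values lay above both arch values, and the mean log2 ratio was -1.04 ± 0.13, which is 2.06-fold more signal in thoracic. On array 1 alone the ratio was -0.95, and it was -0.71 when the median of both its probes stood for the gene, so that the 2-fold rule was no longer met while the 1.5-fold rule was. The further Rgs2 probe was much dimmer, with 114 and 124 in arch and 150.3 and 158 in thoracic, and gave -0.37 ± 0.03. The direction was the same, and in the log ratio deposited with the scanner tables, which carries no added offset, that probe stood at -0.62.

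Rgs5, an R4 protein made in arterial smooth muscle and pericytes that acts on Gq and Gi, was also higher in thoracic. On array 1 its signal was 3071 in arch and 5156 in thoracic, and on array 2 it was 3299 in arch and 5208 in thoracic. The pools did not overlap, and the mean log2 ratio was -0.70 ± 0.06, or 1.63-fold more in thoracic. A lack of overlap across the arrays does not need a large difference. Gna11 also had it, with 812 and 804 in arch and 743 and 749 in thoracic. How many of all genes compared had it was not counted, here or for the genes below. The further Rgs5 probe, with 401 and 414 in arch and 603 and 604 in thoracic, gave -0.57 ± 0.03. This is 1.48-fold, just short of the 1.5-fold rule. Both Rgs5 probes thus pointed the same way, and the median of both still met that rule.

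Rgs1, which restrains chemokine receptor signals in lymphocytes and monocytes, differed the other way. Arch RNA gave 210.2 on array 1 and 207 on array 2, and thoracic RNA gave 114 and 116. Arch exceeded thoracic on both arrays, with a mean of 0.86 ± 0.04 or 1.81-fold. Only 1 probe stands for Rgs1, and it is dim, so the size depended on the offset added to the signals: the ratio was 1.29 with no offset and 1.37 in the deposited log ratio.

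**Figure D2:**
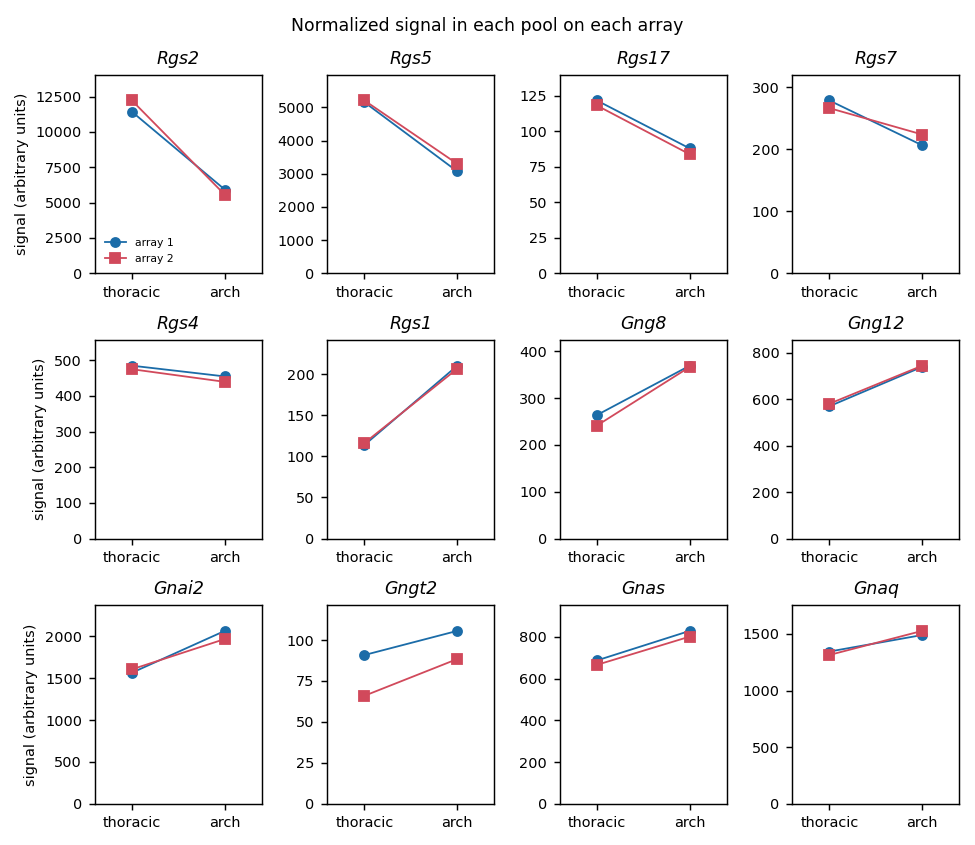
Normalized signal (linear axis from 0, arbitrary units) of 12 members in the thoracic and the arch pool, with 1 line per array. Rgs2 and Rgs5 fall from thoracic to arch, Rgs1 goes from between 114 and 116 to between 207 and 210.2, and Gnaq and Rgs4 are close to level.

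The other 5 R4 genes compared lay near 0. Rgs4, a Gq and Gi regulator studied mostly in heart and brain, gave 455 and 439 in arch and 485 and 475 in thoracic, a mean of -0.10 ± 0.01. Rgs16 stood at 0.10 ± 0.16, Rgs18, a regulator in platelets and megakaryocytes, at 0.02 ± 0.01, and Rgs13, found in germinal centre B cells and mast cells, at -0.03 ± 0.09. Rgs3 was the one R4 gene whose arrays disagreed widely: its brightest probe gave -0.29 on array 1 and 0.34 on array 2, and its 5 probes had means between -0.00 and 0.30.

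The 3 R4 genes that passed the 1.5-fold rule each lie next to an R4 gene that did not pass, while Rgs3 and Rgs16 lie elsewhere. In the RefSeq annotation of assembly GRCm38.p6, Rgs2, Rgs13, Rgs1, Rgs21 and Rgs18 follow one another on chromosome 1 with no other protein-coding gene between them, and Rgs5 and Rgs4 are adjacent elsewhere on the same chromosome. Along the first row the ratios were -1.04 for Rgs2, -0.03 for Rgs13, 0.86 for Rgs1 and 0.02 for Rgs18, so the ends of the range lay 1 gene apart. Rgs5 stood at -0.70 and its neighbour Rgs4 at -0.10. Among the other neighbours, Gnai2 at 0.35 and Gnat1 at 0.00, with 1 gene between them, were the furthest apart. Adjacent pairs were Gnaq 0.18 and Gna14 0.00, Gna11 0.12 and Gna15 -0.02, Gnai3 0.04 and Gnat2 -0.03, and Rgs9 0.06 and Gna13 0.09. Gna14, Gnat1, Gnat2 and Rgs9 were also read from dim probes, with signals between 70.8 and 100.3. Whether neighbours differed more than genes at a distance was not tested.

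The upstream sequences of Rgs2, Rgs5 and Rgs4 show how the promoters of the 2 genes that were higher in thoracic compare with that of the neighbour that was not. Each run below is the 250 bases before the transcription start, 5′ to 3′ on the gene's strand, from RefSeq on GRCm38.p6, with capitals marking CCAAT and TATAAA on either strand (ATTGG is CCAAT read from the other strand).
Rgs2 (chr1:144004150-144004399, minus strand): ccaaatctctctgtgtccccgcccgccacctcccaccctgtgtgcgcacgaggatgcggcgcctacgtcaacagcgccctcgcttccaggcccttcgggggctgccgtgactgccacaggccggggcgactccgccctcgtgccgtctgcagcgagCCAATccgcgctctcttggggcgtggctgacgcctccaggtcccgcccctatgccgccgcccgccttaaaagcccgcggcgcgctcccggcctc
Rgs5 (chr1:169655251-169655500, plus strand): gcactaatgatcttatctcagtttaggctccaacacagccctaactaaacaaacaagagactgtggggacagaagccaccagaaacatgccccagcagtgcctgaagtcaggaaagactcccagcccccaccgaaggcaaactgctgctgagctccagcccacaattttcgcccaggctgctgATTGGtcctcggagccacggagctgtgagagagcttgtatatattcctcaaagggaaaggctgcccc
Rgs4 (chr1:169747643-169747892, minus strand): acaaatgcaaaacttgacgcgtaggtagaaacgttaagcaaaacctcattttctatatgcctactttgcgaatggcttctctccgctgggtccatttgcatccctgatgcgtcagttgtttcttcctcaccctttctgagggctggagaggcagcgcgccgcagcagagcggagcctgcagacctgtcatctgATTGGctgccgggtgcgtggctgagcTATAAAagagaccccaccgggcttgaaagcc

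All 3 held 1 CCAAT, which begins 94 bases before the start in Rgs2, 67 in Rgs5 and 57 in Rgs4, and 33.8% of the 32851 promoter entries hold it in a stretch of this length. TATAAA was found in Rgs4 alone among the 3, 31 bases before the start, and in 12.4% of all entries. Rgs2 held GGGCGG 4 times counting both strands, where Rgs5 and Rgs4 held it 0 times and 32.7% of all entries hold it at least once. The CArG box, the element that serum response factor binds in many smooth muscle genes, was in none of the 3 windows and in 1.47% of all entries. Among the 58 members, 41 had a promoter entry (52 entries in all), of which 27 held GGGCGG and 11 held CCAAT. A match describes these letters only and was not linked to the ratios by any test.

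The RZ family, which acts on Gi and Gz alpha, had 3 genes. Rgs17 gave 87.9 and 83.8 in arch and 122 and 118 in thoracic on arrays 1 and 2. Its pools did not overlap, and the mean of -0.48 ± 0.02 fell short of the 1.5-fold rule. The probe is dim, and without the offset the ratio was -0.97, past the 1.5-fold rule, while the deposited log ratio of -1.03 met the 2-fold rule. Rgs19, at 280 and 279 in arch and 255 and 258 in thoracic, had the highest mean of the family, 0.12 ± 0.02, and Rgs20 stood at -0.12 ± 0.12.

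The R7 proteins work as dimers with the atypical beta subunit Gnb5 and are known mainly from neurons and the retina. Rgs7 was the lowest, with 207 and 224 in arch and 279 and 267 in thoracic. Thoracic exceeded arch on both arrays, and the mean of -0.34 ± 0.13 did not pass a rule. Rgs9, with 86.1 and 75.5 in arch and 74.8 and 79.6 in thoracic, was the highest at 0.06 ± 0.20, and its arrays differed in direction. Rgs11 stood at -0.06 ± 0.02 and Rgs6 at 0.04 ± 0.11. Gnb5 itself was at -0.02 ± 0.04 and the membrane anchor Rgs9bp, with 92.2 and 91.1 in arch and 86.4 and 95.7 in thoracic, at 0.01 ± 0.12. The anchor Rgs7bp, which the array lists under an older name outside the selection, gave -0.37 ± 0.20 on its brighter probe and -0.12 ± 0.07 on the other.

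In the R12 family Rgs10, a small protein abundant in leukocytes, gave 4199 and 4184 in arch and 4541 and 4887 in thoracic, a mean of -0.17 ± 0.08. Rgs14 was at -0.15 ± 0.00. Rgs12, the family's highest, gave 300.4 and 383 in arch and 322 and 341 in thoracic, with opposite directions on the arrays and a mean of 0.03 ± 0.19. The R12 genes thus stayed within 1.2-fold.

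The 15 G alpha genes compared spanned -0.03 to 0.35 with a median of 0.06, and 12 lay above 0, beside 10797 of all 22811 genes. Those 12 include Gna14 and Gnat1 at 0.00 and Gnal at 0.03, and a shift of the class was not tested. The G alpha median stayed above 0 in all 10 alternatives run, between 0.01 and 0.10, with 10 to 13 genes above 0. Not all of these could give a new outcome. The series table repeats the deposited log ratio, and no filter and no saturated probes left the G alpha values as they were. Gnai2, the widely expressed Gi alpha, was the highest. Its signal was 2067 and 1970 in arch and 1567 and 1607 in thoracic, the pools did not overlap, and the mean was 0.35 ± 0.08. Gnai1 and Gnai3, its close relatives, were at 0.06 ± 0.06 and 0.04 ± 0.09. Gnao1, best known from neurons, was at 0.21 ± 0.04 on its brightest probe and between -0.15 and -0.01 on its other 2. Gnaz, with 92.9 on both arrays in arch and 85.2 and 106 in thoracic, was the lowest of this family at -0.03 ± 0.22, and the transducin genes Gnat1 and Gnat2, which serve the photoreceptors, stood at 0.00 ± 0.05 and -0.03 ± 0.16.

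Gnas, which encodes Gs alpha from an imprinted locus with several alternative first exons, was measured by 6 probes under its own name. The brightest gave 829 and 801 in arch and 687 and 666 in thoracic, with a mean of 0.27 ± 0.00, and the arch exceeded the thoracic pool on both arrays. The other 5 probes, which are far dimmer, had means between -0.10 and 0.07, so the median over the 6 was 0.01. Gnal, the olfactory form of Gs alpha, gave 106 and 80.0 in arch and 102 and 79.6 in thoracic, a mean of 0.03 ± 0.03.

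Of the Gq class, Gnaq gave 1490.1 and 1527 in arch and 1344 and 1314 in thoracic, a mean of 0.18 ± 0.05, with a further probe at 0.17. Gna11, the partner of Gnaq in smooth muscle, stood at 0.12 ± 0.02 with a further probe at 0.13. Gna15, a form restricted to blood cells, was the lowest at -0.02 ± 0.06, with 181 and 188 in arch and 177 and 197 in thoracic, and Gna14 was at 0.00 ± 0.11. Gna12 (115 and 109.8 in arch, 110.2 and 102 in thoracic) and Gna13 (274 and 281 in arch, 269 and 254 in thoracic) each stood at 0.09. Gnaq, Gna11, Gna12 and Gna13, the alpha subunits of most contractile receptors, thus each differed by less than 1.2-fold between the pools.

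The 5 G beta genes had a median of 0.03. Gnb2 was the highest, with 1116 and 997 in arch, 904 and 894 in thoracic, and a mean of 0.23 ± 0.10. Gnb1, the commonest partner in most cells, was at 0.13 ± 0.07, and its 3 probes lay between 0.13 and 0.17. Gnb4 was the lowest, with 854 and 913 in arch, 983 and 1022 in thoracic, and a mean of -0.18 ± 0.03, but its other probe stood at 0.04. Gnb3 was at 0.03 ± 0.10. With array 2 alone the median of the 5 was -0.03.

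Of 12 G gamma genes on the array 10 were compared, with a median of 0.07 and 7 above 0, beside 10797 of all 22811 genes. Gng8, first described in olfactory tissue, came closest to passing. Arch gave 369 and 367 and thoracic 264 and 241, so the pools did not overlap, and the mean was 0.54 ± 0.08, or 1.46-fold. On array 2 alone it reached 0.60, and without the offset 0.65, which pass the 1.5-fold rule.

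Gng12, a widely expressed gamma subunit, gave 739.6 and 745 in arch and 569.8 and 581 in thoracic, a mean of 0.37 ± 0.01, and the pools did not overlap. Gngt2, the gamma subunit of cone transducin, gave 106 and 88.4 in arch and 90.8 and 65.9 in thoracic. On each array arch was higher, but the pools overlapped across the arrays, and the mean of 0.32 ± 0.15 became 0.87 without the offset and 1.01 in the deposited log ratio. Gng10 was the lowest, with 3889 and 4137 in arch, 4539 and 4542 in thoracic, and a mean of -0.18 ± 0.06. The other 6 ranged from -0.09 (Gng3 and Gng13) to 0.17 (Gng11), with Gng2 at 0.10, Gng5 at 0.02 and Gng7 at 0.04 ± 0.51.

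Of the receptor kinases, Grk2 (listed as Adrbk1), the main kinase of active adrenergic receptors, gave 599 and 684 in arch and 589.7 and 629 in thoracic, a mean of 0.07 ± 0.07. Grk3 (Adrbk2) gave 101 and 115 in arch and 115 and 120.4 in thoracic, a mean of -0.12 ± 0.09. Both lay within 1.2-fold. Grk5, which the array lists under an older name outside the selection, was at 0.31 ± 0.03 and 0.39 ± 0.05 on its 2 probes, and Grk6 and Grk4, also under older names, stood at 0.02 and 0.01 on their brightest.

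Gipc1, Gipc3 and Gnb1l met the selection by name without belonging to these families. Gipc1 and Gipc3, listed as proteins that interact with Rgs19, were at 0.15 ± 0.01 and 0.16 ± 0.01, the latter with 109 and 127 in arch and 97.3 and 114 in thoracic. Gnb1l, a protein with repeats like those of G beta, was at -0.03 ± 0.08, with 248 and 244 in arch and 243 and 259 in thoracic. Without the 4 genes matched by name only, the counts of changed members were the same and the median was 0.03.

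**Figure D3:**
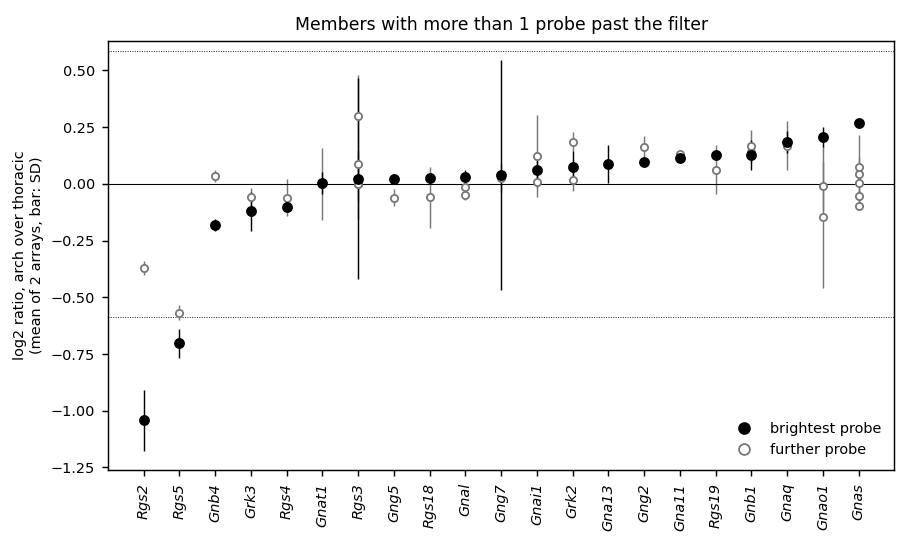
Mean log2 ratio of each probe (points, bars give the SD between the 2 arrays) for 21 of the 22 members with more than 1 probe past the filter, ordered by the ratio of the brightest probe. The probes of Rgs2 and Rgs5 all lie below 0, and those of Gnas and Gnao1 spread to both sides of it.

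The probes of a gene were not always in step. In 13 of the 22 members with several usable probes all probes lay on the same side of 0, and in 9 they lay on both sides. Those 9 include Gnas, Gnao1 and Gnb4 but neither Rgs2 nor Rgs5. Between the arrays, 37 members had the same direction on both and 18 did not, and the ratios of array 1 and array 2 over the 55 members were correlated across genes at a Pearson r of 0.79 and a Spearman coefficient of 0.55 (0.81 and 0.58 over all genes, which share the same 2 pools and are not independent). The median SD between arrays was 0.07 for the members and 0.06 for all genes.

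Genes that work before and after the G proteins were counted in the same way, from lists of known receptors, effectors and regulators. Of 21 receptors coupled to Gq or G12/13, 1 was higher in arch and 1 was higher in thoracic by the 1.5-fold rule, and their median was 0.01. The thrombin receptor F2r gave 1761 and 1660.2 in arch and 974 and 900 in thoracic, a mean of 0.87 ± 0.02. The vasopressin receptor Avpr1a gave 78.3 and 74.9 in arch and 162 and 155 in thoracic. Its mean of -1.05 ± 0.00 met the 2-fold rule. For both receptors the pools did not overlap. The angiotensin receptor Agtr1a stood at 0.24 ± 0.02 and the endothelin receptor Ednra at 0.42 ± 0.06.

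Of 12 Gs-coupled receptors 1 was higher in thoracic and the median was -0.06. It was Calcrl, the receptor for adrenomedullin and calcitonin gene-related peptide, with 603 and 574 in arch and 1410.1 and 1471 in thoracic. Its mean of -1.29 ± 0.09 met the 2-fold rule. None of 11 Gi-coupled receptors passed, their median was 0.04, and they ranged from -0.24 (P2ry12) to 0.39 (Npy1r). Receptors of all 3 classes thus lay on both sides of 0.

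Of 27 effectors 1 was higher in arch by the 1.5-fold rule and none in thoracic, and the median was 0.08. It was the calcium release channel Itpr3, with 634 and 704 in arch, 423 and 444 in thoracic, and a mean of 0.62 ± 0.06. Phospholipase C beta 1 (Plcb1) was next at 0.50 ± 0.08 and the kinase Rock1 was lowest at -0.29 ± 0.06. Of 17 other regulators 1 was higher in thoracic, and the median was 0.09. It was Gpsm2, which binds Gi alpha in its GDP form, with 1060.4 and 1100 in arch and 2451 and 2446 in thoracic, a mean of -1.18 ± 0.04, which met the 2-fold rule. The arch and thoracic values of Itpr3 and Gpsm2 did not overlap.

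**Figure D4:**
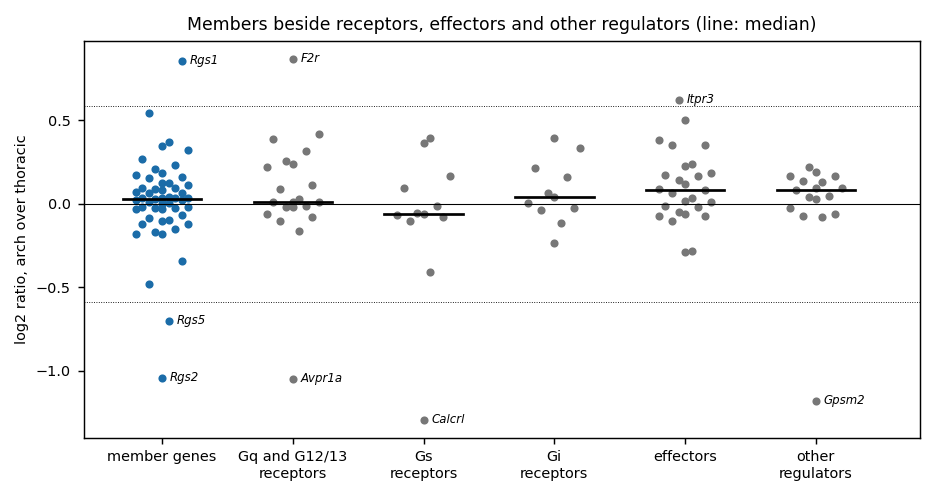
Mean log2 ratio of arch over thoracic signal for 54 members and for lists of receptors, effectors and other regulators of G proteins, with 1 point per gene, a bar at each median and names for genes beyond 1.5-fold (dotted lines). The medians lie between -0.06 and 0.09, and each list but the Gi-coupled receptors has 1 to 3 named genes.

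The segments also differed in markers of cell types. In whole vessel wall, fewer cells of a type and less RNA per cell cannot be told apart. Beside Rgs1, which was higher in arch, 4 of 10 macrophage markers passed in arch (Cd5l 4.09 ± 0.13, Gpnmb 2.34 ± 0.14, Lgals3 1.65 ± 0.09 and Mpeg1 1.33 ± 0.05) and 0 in thoracic. The other 6 did not pass. Cd68 stood at 0.51 ± 0.07 and Msr1 at 0.38 ± 0.11. The rest lay nearer 0: Adgre1 at -0.06 ± 0.01, Csf1r at 0.07 ± 0.09, Itgam at 0.04 ± 0.11 and Cd14 at -0.14 ± 0.06. The summed signal of the 10 was between 22933 and 23063 in arch and between 7809 and 7967 in thoracic, and without Cd5l it was between 12889 and 13039 in arch and between 7254 and 7340 in thoracic. Of 8 lymphocyte markers 0 passed in either direction, with sums between 2076 and 2278 in arch and between 2006 and 2125.5 in thoracic, and the leukocyte gene Ptprc stood at 0.40 ± 0.05. All 18 were well above background in both pools, and their part in the Rgs1 result was not tested.

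Beside Rgs2 and Rgs5, which were higher in thoracic, 0 of 8 smooth muscle markers passed in either direction. Acta2 and Tagln were saturated, and the other 6 had a median of 0.06, from -0.23 ± 0.12 (Synpo2) to 0.27 ± 0.04 (Smtn), with Des at -0.06 ± 0.10 and Myh11 at 0.15 ± 0.04. The summed signal of the 6 was between 53570.2 and 55122 in arch and between 50743 and 51353 in thoracic, and without Cnn1, the brightest, it was between 14695 and 14714 in arch and between 14381 and 14611 in thoracic. Of 7 pericyte markers 1 passed, in arch (Abcc9, 0.64 ± 0.03), and the sum was between 8809 and 9650.3 in arch and between 8101 and 8115 in thoracic. Kcnj8 stood at 0.11 ± 0.09 and Notch3 at -0.11 ± 0.02. All 15 were well above background in both pools, and their part in the Rgs2 and Rgs5 results was not tested.

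Each array held 41534 gene spots, 76.5% to 82.6% of them well above background in either RNA. Markers of other cell types and tissues passed the 1.5-fold rule in the arch pool only. These were 5 of 8 of heart muscle, 5 of 5 of mesothelium, 4 of 10 of endothelium, 2 of 6 of fibroblasts and 1 of 7 of fat. Of the nerve markers 0 of 9 passed. The part of all these markers in the members' ratios was not tested.

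**Figure D5:**
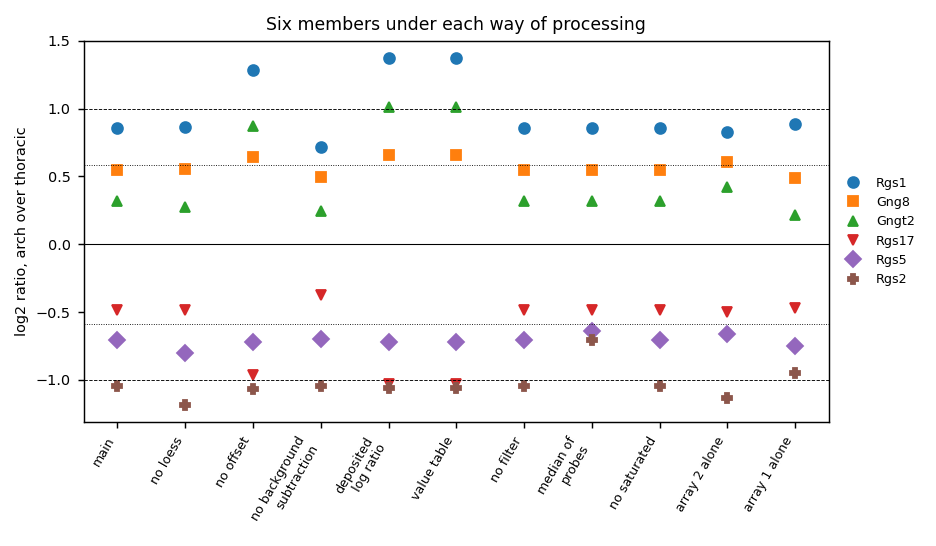
Log2 ratio of arch over thoracic signal of 6 members under the main processing and each of 10 alternatives, with dotted lines at 1.5-fold and dashed lines at 2-fold. Rgs1, Rgs2 and Rgs5 lie beyond 1.5-fold throughout. Gng8, Gngt2 and Rgs17 cross it with normexp without the offset, in the deposited log ratio and in the series table. Without background subtraction, where no offset is added either, they do not, and Gng8 also crosses it on array 2 alone.

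Rgs1, Rgs2 and Rgs5 passed the 1.5-fold rule in all 10 alternatives run. Ratios were between 0.72 and 1.37 for Rgs1, between -1.18 and -0.71 for Rgs2 and between -0.80 and -0.64 for Rgs5. Some alternatives could not change the outcome. The series table repeats the deposited log ratio, and each array alone meets the same-side condition by construction. Rgs1 has 1 probe, so it stayed at 0.86 with no filter, the median over probes and no saturated probes. For 22 members the sign differed from the main value in at least 1 alternative. The largest of these 22 in the main values was Gnao1 at 0.21.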

How the data were processed

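The authors deposited 1 scanner table per array with intensity values per spot: mean signals of both dyes and medians of the local background, not normalized, per the file headers. The file headers give Feature Extraction 8.1.1.1 as the software, and the submitters' processing notes give 9.1.1.1. The deposited log10 ratio, red over green in these tables and arch over thoracic in the series table, was used as an alternative. RNA integrity numbers were 7.5 to 7.7, per the labels' protocols.

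Signals were corrected by normexp with an offset of 50 and loess was run within each array, control spots carrying weight 0 (limma 3.58.1, R 4.3.3). Spots of a probe were averaged, 8 and 5 outlier spots were left out, array 1 was turned, and the arrays were averaged. A probe had to be well above background in the same RNA on both arrays. A gene was read from its brightest such probe, which left 22811 genes. Signals therefore hold the offset, which pulls ratios of dim probes towards 0, and levels of different probes were not compared (marker sums add signals of different probes, so bright ones weigh most). The steps were run on simulated arrays whose changed probes were all drawn from bright ones, so that run does not cover dim probes. There was 1 pool per segment, so sizes and no tests are given.

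Symbols came from RefSeq (GRCm38.p6): 84 member probes matched by accession, 15 by symbol and 1 by synonym. For the probes' own genome build, the sources used here give none. The members and lists were chosen with earlier results of these data known. Named genes are members past a rule of size, the highest and lowest of each family, up to 4 genes of each other list and up to 3 of each marker list; further members and markers were named after their values were seen, and some items that the rule selects are not reported here. Alternatives were no loess, no offset, no background subtraction, the deposited log ratio, the series table, no filter on dim probes, the median over probes, no saturated probes, each array alone, and members without the genes matched by name only.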

Additional observations from a re-analysis of the deposited data

How the results depend on the processing

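Rgs1, Rgs2 and Rgs5 kept their direction and stayed past the 1.5-fold rule in all 10 alternatives, some of which could not change their values. The number of members higher in arch by the 1.5-fold rule was 3 in place of 1 with no offset, in the deposited scanner log ratio and in the series table (Gng8 and Gngt2 were added), and 1 to 2 with each array alone, Gng8 being added on array 2. By the 2-fold rule 1 member was higher in arch in place of 0 under the same 3 alternatives. In thoracic 2 members passed the 2-fold rule in place of 1 in the deposited log ratio and in the series table (Rgs17 was added), 0 with the median over probes, and 0 to 1 with each array alone. By the 1.5-fold rule 3 were higher in thoracic in place of 2 with no offset, in the deposited log ratio and in the series table, again by Rgs17. The median over the members, 0.03 as reported, was 0.014 without loess and 0.0058 with the median over probes. No member past a rule changed sign. The causes were not tested, except that the offset acts on dim probes by construction. No paired analysis was possible because both arrays hold the same 2 pools and count as 1 replicate. The number of arrays limits the precision, and 8 of the 55 members had every signal under 100, of which the offset is 50, so a difference there would be understated.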

Other observations

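The members with the widest gap between arrays were Gng7, at 0.40 on array 1 and -0.32 on array 2, and Rgs3, at -0.29 and 0.34. They were singled out after their values were seen. The Gng7 probe is dim, with signals between 69.3 and 91.2, while the Rgs3 probe is bright, with signals between 2168 and 3254. Read by dye, Rgs3 had more signal in Cy5 on both arrays, and Gng7 more in Cy3 on both. The part of the dyes in these gaps was not tested. The arch signal of Rgs3 on array 1 was the lowest of its 4 values and that on array 2 the highest. The other 4 Rgs3 probes had means between -0.00 and 0.30.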
